A study of Mus musculus with 12 samples.

Results

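The interferon-stimulated genes described here are 42 genes known to be transcribed after interferon, found by symbol among the 26608 genes counted in every library. The list held 31 genes of the type I interferon response and 11 genes of the interferon gamma response. All 42 were present in the counts and passed the filter on low counts, *Oas1g* only through its reads in DKO-severe. Type I interferons act through the receptor chains IFNAR1 and IFNAR2, the kinases JAK1 and TYK2, and a transcription factor complex that contains IRF9 and binds the interferon-stimulated response element (ISRE). Interferon gamma acts through IFNGR1 and IFNGR2 and the kinases JAK1 and JAK2, and leads to transcription from the gamma-activated site (GAS) and to further factors such as IRF1. Resting lymphocytes keep a basal level of many of these transcripts, and the proteins they encode block viral replication, sense nucleic acids, attack intracellular pathogens or load antigens.

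The libraries were made from CD4+ T cells negative for the YFP(FOXP3) reporter, that is, cells not expressing FOXP3 when sorted, from spleen combined with cervical and inguinal lymph nodes of mice aged 14 weeks. *Foxp3Cre WT* mice (WT) carried the same Cre recombinase, driven by *Foxp3*, and are labelled wild type. *Foxp3-Cre Tet2/3 fl/fl* mice lack the 5-methylcytosine oxidases TET2 and TET3 in cells that have expressed *Foxp3*, and were graded DKO-moderate or DKO-severe by how many cells their spleens and nodes held. Each of the 3 groups had 4 mice with 1 library each, and the methods of the study place all mice on the B6 background. Because Cre acts in cells with a *Foxp3* history, sorted cells of the DKO groups can hold both former Treg cells without TET2 and TET3 and T cells that kept both genes. The study also treats this Cre as possibly leaky, so some cells that were never Treg cells may have lost the genes. The sequencing counted RNA from the whole sorted population, so fewer cells of a type and less RNA per cell cannot be told apart.

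Reads on genes ranged from 29254260 to 42133536 per library, and counts are given as CPM, reads scaled to a common library size after TMM normalization. The summed CPM of 7 T cell markers, *Cd4* and the CD3 chains among them, was 4053 to 4663 across WT, 4680 to 4886 across DKO-moderate and 3753 to 4205 across DKO-severe. Markers of other cells were not evenly spread. The summed CPM of 12 neutrophil markers was 9.80 to 15.1 in WT, 13.4 to 36.2 in DKO-moderate, 27.5 to 45.4 in DKO-severe 3 and 4, and 865 and 2312 in DKO-severe 2 and 1. The 10 B cell markers summed to 6.81 to 15.2 in the other 3 WT libraries but 247 in WT 3, to 21.1 to 47.4 in DKO-moderate, and to 105, 414, 37.7 and 40.4 in DKO-severe 1 to 4. The 9 markers of monocytes and macrophages summed to 9.31 to 16.7 CPM in WT 1, 2 and 4 and 180 CPM in WT 3, to 17.9 to 58.9 CPM in DKO-moderate, and to 492, 416, 154 and 90.7 CPM in DKO-severe 1 to 4. In DKO-severe, markers of plasma cells summed to 3.95 to 13.3 CPM and of erythroid cells to 8.40 to 31.4 CPM, beside at most 2.42 and 14.0 CPM in WT. Markers of CD8 and NK cells summed to 17.7, 114, 25.1 and 26.4 CPM in DKO-severe 1 to 4 and to 30.2 to 46.4 CPM across WT. Those of dendritic cells summed to 20.7 to 33.9 CPM across DKO-severe and 8.56 to 34.6 CPM across WT. Y-linked genes had 0 to 0.571 CPM in WT 2, DKO-moderate 2, DKO-moderate 4 and DKO-severe 3. Results on the members are also given without the libraries high in neutrophil or B cell markers.

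Sequence shared by the members was examined in the promoter windows of RefSeq (mouse build GRCm38.p6, 250 bases before to 50 bases after a start), which held 32 of the 42 members. *Mx1*, *Mx2*, *Oas2*, *Rtp4*, *Dhx58*, *Zbp1*, *Usp18*, *Parp9*, *Parp14* and *Iigp1* had no entry. The ISRE was searched as GAAANNGAAA and the GAS as TTCNNNGAA, on both strands, where N is any base and the GAS reads alike on either strand. An ISRE stood in 19 of the 32 members (59.38%) and in 3.99% of the 27025 genes of the table. A GAS stood in 12 members (37.5%) and in 9.55% of all genes. Both motifs were present in 7 members and neither in 8, and the motifs overlapped each other only in *Bst2*. Of the type I members with an entry, 12 of 22 held an ISRE and 6 a GAS, and of the interferon gamma members 7 of 10 held an ISRE and 6 a GAS. These matches are a description of the letters and not of binding.

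The stretches below are shown because they belong to members whose calls in DKO-severe against WT, described further on, went in opposite directions although each holds a motif before its start: *Ifit2*, *Ifit1*, *Ifit3* and *Igtp* were lower, and *Gbp3* and *Gbp5* were higher. Each runs 5′ to 3′ on the plus strand toward the RefSeq start, without bases that GENCODE vM21 places in an exon, and capitals mark the ISRE and GAS matches, where an ISRE of the other strand appears as its reverse complement. *Ifit2* (chr19:34550444-34550693) held 1 GAS that began 241 bases before the start. *Ifit1* (chr19:34640744-34640870) held ISREs 104 and 85 bases before it, and *Ifit3* (chr19:34583279-34583528) held ISREs 156 and 122 bases before it. *Igtp* (chr11:58199306-58199555) held a GAS and an ISRE 45 and 34 bases before its start. *Gbp3* (chr3:142559794-142560025) held 2 overlapping ISREs 45 and 39 bases before its start, and *Gbp5* (chr3:142496684-142496899) held GAS matches at 245 and 52 bases and an ISRE at 165 bases.
Ifit2: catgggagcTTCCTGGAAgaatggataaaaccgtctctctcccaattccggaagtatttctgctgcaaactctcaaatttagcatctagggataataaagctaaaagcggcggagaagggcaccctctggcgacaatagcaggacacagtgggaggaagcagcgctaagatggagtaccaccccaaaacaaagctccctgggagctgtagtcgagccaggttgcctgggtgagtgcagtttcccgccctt
Ifit1: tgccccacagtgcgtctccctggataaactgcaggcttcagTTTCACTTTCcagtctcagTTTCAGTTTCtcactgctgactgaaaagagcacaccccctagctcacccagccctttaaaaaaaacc
Ifit3: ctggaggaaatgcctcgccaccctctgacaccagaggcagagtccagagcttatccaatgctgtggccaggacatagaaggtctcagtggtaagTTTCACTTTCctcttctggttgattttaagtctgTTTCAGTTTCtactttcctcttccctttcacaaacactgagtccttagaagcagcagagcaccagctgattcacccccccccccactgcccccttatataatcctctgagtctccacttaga
Igtp: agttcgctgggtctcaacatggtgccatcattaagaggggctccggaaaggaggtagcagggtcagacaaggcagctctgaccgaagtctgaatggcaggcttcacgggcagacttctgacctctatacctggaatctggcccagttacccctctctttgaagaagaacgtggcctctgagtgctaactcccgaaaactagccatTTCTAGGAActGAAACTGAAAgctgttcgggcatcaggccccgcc
Gbp3: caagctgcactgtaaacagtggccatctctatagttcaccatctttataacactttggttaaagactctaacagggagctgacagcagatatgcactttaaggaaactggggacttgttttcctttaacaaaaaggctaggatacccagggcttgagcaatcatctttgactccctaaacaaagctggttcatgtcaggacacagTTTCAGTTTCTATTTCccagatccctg
Gbp5: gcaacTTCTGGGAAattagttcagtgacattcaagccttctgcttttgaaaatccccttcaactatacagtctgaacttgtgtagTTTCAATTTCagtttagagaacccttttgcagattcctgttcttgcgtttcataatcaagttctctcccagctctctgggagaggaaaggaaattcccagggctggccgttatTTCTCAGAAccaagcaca

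In DKO-severe cells most interferon-stimulated genes were lower than in WT. By the quasi-likelihood test of edgeR, fitted over all genes, 25 of the 42 members fell and 3 rose, while among all 16035 genes tested 25.9% fell and 26.6% rose. The median log2 fold change of the members was -0.63, beside -0.01 for all genes tested. The 4 DKO-severe libraries lay wholly below the 4 WT libraries in 23 members and wholly above them in 3, where 27.3% and 24.6% of all genes did so. The members that rose were *Mx1*, *Gbp3* and *Gbp5*. The fall was found in both groups of members: 18 of the 31 type I genes fell and 1 rose, with a median log2 fold change of -0.63, and 7 of the 11 interferon gamma genes fell and 2 rose, also with a median of -0.63. Scaled by library size alone, without TMM, the median of all genes moved to 0.18 and that of the members to -0.45, and 21 members fell and 6 rose. In that fit 51.17% of all genes were called and 17.16% fell.

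**Figure D1:**
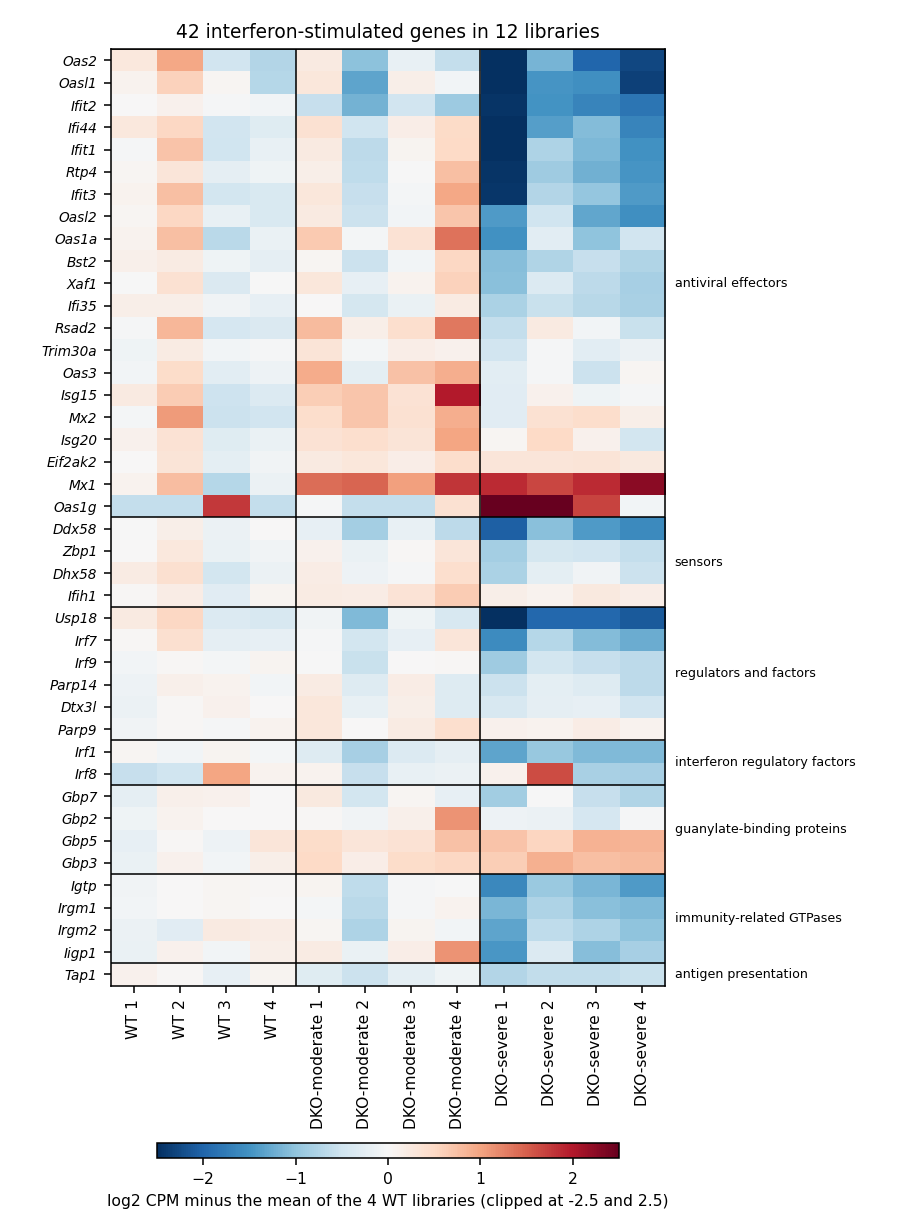
Each row is 1 of the 42 members and each column 1 of the 12 libraries; colour gives log2 CPM minus the mean of the 4 WT libraries, clipped at -2.5 and 2.5. Blue dominates the 4 DKO-severe columns, where 25 members fell against WT, while *Mx1*, *Gbp3* and *Gbp5*, the 3 that rose, are red there. *Oas1g*, not called against WT and with 0 to 34 reads per library, is also red in DKO-severe 1 to 3.

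Markers of other cells also differed between the groups, so the members were counted again with libraries left out or with terms added. Without DKO-severe 1 and 2, the libraries high in neutrophil markers, 22 members fell and 3 rose, with a median log2 fold change of -0.63, and 18.79% of all genes fell. Without WT 3 and DKO-severe 1 and 2, the libraries over 100 CPM of B cell markers, 22 fell and 3 rose, with a median of -0.64, and 19.71% of all genes fell. The libraries kept in both, DKO-severe 3 and 4, were still above WT 1, 2 and 4 in monocyte and macrophage markers. The same held for the markers of neutrophils, B cells, plasma cells, erythroid cells and dendritic cells. With terms for the neutrophil and B cell markers in the fit, 2 members (*Ifit2* and *Irf1*) fell and the 3 rises remained, the median was -0.50, and the share of all genes that fell dropped to 4.88%. In that fit 5 of the 42 members were called in either direction, beside 16.98% of all genes. The summed neutrophil markers of WT and DKO-severe did not overlap, so these terms and the group cannot be fully told apart. A call lost in that fit is therefore no measure of the part of other cells. Markers of naive T cells fell and markers of proliferation rose over the same groups: the summed CPM of 8 naive markers was 5316 to 6010 across WT, 2825 to 4528 across DKO-moderate and 1816 to 2467 across DKO-severe, and that of 8 proliferation markers was 74.8 to 138, 219 to 374 and 484 to 1241. The part of these shifts, and of the monocyte and macrophage markers, in the members' levels was not tested.

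Among the 21 antiviral effectors of the type I group, 11 fell, 1 rose and 9 did not pass the test in DKO-severe against WT. Beside this count, and those of the smaller roles below, 25.9% of all genes fell and 26.6% rose. *Ifit2* (chr19:34550694-34576419), one of the tetratricopeptide proteins that bind foreign RNA and restrict translation, had CPM values of 125, 134, 122 and 118 for the WT mice, 83.9, 54.6, 89.8 and 66.1 for the DKO-moderate mice and 22.7, 44.2, 39.8 and 35.3 for the DKO-severe mice. The 3 groups did not overlap at any point. *Ifit2* stood at 28.4% of its WT mean in DKO-severe (log2 fold change -1.81, SE 0.20, edgeR adjusted p = 2.23e-05), and its neighbours *Ifit1* and *Ifit3* fell too, with log2 fold changes of -1.42 and -1.35. The call on *Ifit3* was lost without WT 2 (edgeR adjusted p = 0.0524).

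The 2′-5′ oligoadenylate synthetases, which make the activator of RNase L, differed from one another. *Oas2* (chr5:120730333-120749853) had levels of 32.5, 52.6, 19.3 and 16.1 CPM across WT, 31.7, 13.2, 23.6 and 17.8 CPM across DKO-moderate and 4.09, 12.02, 6.76 and 5.55 CPM across DKO-severe. The DKO-severe libraries lay below all others, and the log2 fold change against WT was -2.08 (SE 0.43, edgeR adjusted p = 0.00172). *Oasl1* (chr5:114923240-114937915), a related protein without synthetase activity that restrains IRF7 production, gave 11.8, 16.6, 11.5 and 6.81 CPM over the WT libraries, 13.6, 4.41, 12.3 and 10.6 CPM over the DKO-moderate libraries and 1.10, 3.99, 3.81 and 2.15 CPM over the DKO-severe libraries. DKO-severe was again below every other library, with a log2 fold change of -2.07 against WT (SE 0.44, edgeR adjusted p = 0.00198). *Oasl2* fell by 1.17, whereas *Oas3* and *Oas1a* did not pass the test in this comparison, at -0.21 and -0.83 (edgeR adjusted p = 0.488 and 0.0732). *Oas1g* had 0, 0, 8 and 0 reads in WT, 1, 0, 0 and 2 reads in DKO-moderate and 24, 34, 9 and 1 reads in DKO-severe. These few reads overlap between all groups, and since only reads with a single position were counted, the counts of near-identical genes such as *Oas1a* and *Oas1g* are uncertain.

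*Ifi44* (chr3:151730922-151749960), an antiviral protein of the cytoplasm, had CPM values of 5.69, 6.74, 3.33 and 3.80 for the WT mice, 6.14, 3.31, 5.27 and 6.57 for the DKO-moderate mice and 0.681, 1.77, 2.19 and 1.46 for the DKO-severe mice. *Rtp4* (chr16:23520291-23614222), a chaperone that also restricts flaviviruses, had levels of 35.0, 41.7, 28.9 and 31.7 CPM across WT, 37.9, 21.8, 33.6 and 57.6 CPM across DKO-moderate and 6.17, 18.3, 14.7 and 12.1 CPM across DKO-severe. In both genes the DKO-severe libraries lay below all 8 others, with log2 fold changes against WT of -1.68 (SE 0.37) and -1.42 (SE 0.32). DKO-severe 1 was the lowest library in each. The other effectors that fell were *Ifi35*, *Bst2*, which tethers budding virions, and *Xaf1*, with log2 fold changes of -0.72, -0.78 and -0.73.

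*Mx1* (chr16:97447035-97462907), an antiviral dynamin-like GTPase, went the other way. It gave 10.03, 16.3, 5.78 and 8.56 CPM over the WT libraries, 25.0, 26.0, 19.4 and 32.7 CPM over the DKO-moderate libraries and 34.7, 30.4, 34.9 and 45.7 CPM over the DKO-severe libraries. Both DKO groups lay above WT without overlap, and overlapped each other. The log2 fold change of *Mx1* was 1.84 in DKO-severe (SE 0.27, edgeR adjusted p = 0.000176) and 1.34 in DKO-moderate (SE 0.27, edgeR adjusted p = 0.00583), and both calls held when any 1 of the 12 libraries was left out. Common laboratory strains are known to carry defective *Mx1* alleles, and the allele of these B6 mice was not examined here. *Mx2*, its neighbour and a polymorphic pseudogene in GENCODE, differed from WT by a log2 fold change of 0.05 (SE 0.34, edgeR adjusted p = 0.916).

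*Trim30a* (chr7:104409025-104465193), a negative regulator of Toll-like receptor signalling, had CPM values of 175, 217, 179 and 185 for the WT mice, 235, 182, 210 and 204 for the DKO-moderate mice and 136, 185, 157 and 170 for the DKO-severe mice. DKO-severe 2 reached into the WT range, and the log2 fold change of -0.22 against WT did not pass the test (SE 0.11, edgeR adjusted p = 0.114). *Eif2ak2* (chr17:78852564-78882573), which encodes the RNA-activated kinase PKR, was the member nearest to the threshold on its outer side. It had levels of 32.8, 40.4, 27.3 and 30.4 CPM across WT, 37.8, 39.4, 36.5 and 44.1 CPM across DKO-moderate and 39.9, 40.0, 40.5 and 38.2 CPM across DKO-severe. All but 1 of the DKO-severe libraries lay within the WT range, and the log2 fold change was 0.28 (SE 0.11, edgeR adjusted p = 0.0518).

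Of the 4 sensors of nucleic acids, 2 fell. *Ddx58* (chr4:40203773-40239828) encodes RIG-I, the receptor of viral RNA with a 5′ triphosphate, and gave 185, 205, 167 and 186 CPM over the WT libraries, 160, 104, 162 and 118 CPM over the DKO-moderate libraries and 45.3, 89.95, 69.1 and 61.4 CPM over the DKO-severe libraries. *Zbp1* (chr2:173206612-173218923), which senses Z-form nucleic acids and triggers cell death, had CPM values of 123, 148, 110 and 115 for the WT mice, 133, 110, 126 and 152 for the DKO-moderate mice and 68.4, 90.5, 88.6 and 81.2 for the DKO-severe mice. The 3 groups did not overlap in *Ddx58*, and DKO-severe lay below both others in *Zbp1*. The log2 fold changes against WT were -1.48 (SE 0.20, edgeR adjusted p = 8.33e-05) and -0.59 (SE 0.13, edgeR adjusted p = 0.00195). *Ifih1*, which encodes the long-RNA sensor MDA5, and *Dhx58*, which encodes the helper LGP2, did not pass the test, at 0.15 (SE 0.11) and -0.42 (SE 0.20).

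Among the 6 regulators and factors, 5 fell, and *Usp18* (chr6:121245906-121270917) had the largest fall of the 42 members. USP18 removes ISG15 from proteins and blocks signalling at IFNAR2. It had levels of 39.1, 48.0, 26.4 and 25.3 CPM across WT, 31.4, 15.6, 31.2 and 25.2 CPM across DKO-moderate and 2.82, 8.49, 8.59 and 7.75 CPM across DKO-severe. DKO-severe lay below every other library and stood at 19.9% of the WT mean (log2 fold change -2.32, SE 0.35, edgeR adjusted p = 0.000217). *Irf7*, the factor that amplifies type I interferon transcription, fell by 1.14 and *Irf9*, the DNA-binding part of the type I complex, by 0.63. *Parp14* (chr16:35832874-35871544), an ADP-ribosyltransferase, gave 226, 268, 262 and 234 CPM over the WT libraries, 286, 199, 281 and 199 CPM over the DKO-moderate libraries and 170, 208, 198 and 156 CPM over the DKO-severe libraries.

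*Dtx3l* (chr16:35926511-35939151), a ubiquitin ligase that works with PARP9, had CPM values of 180, 206, 216 and 202 for the WT mice, 244, 176, 221 and 161 for the DKO-moderate mice and 152, 171, 173 and 144 for the DKO-severe mice. In *Parp14* and *Dtx3l* DKO-severe lay below WT but overlapped DKO-moderate. Their log2 fold changes against WT were -0.44 (SE 0.14, edgeR adjusted p = 0.0216) and -0.33 (SE 0.13, edgeR adjusted p = 0.0464), and *Dtx3l* was the member nearest to the threshold on its inner side. The call on *Parp14* was lost without WT 2, DKO-severe 1 or DKO-severe 4, and that on *Dtx3l* without any 1 of 7 libraries of WT and DKO-severe, with edgeR adjusted p up to 0.083 and 0.157. *Parp9*, whose start overlaps that of *Dtx3l* on the opposite strand, did not pass the test at 0.11 (SE 0.08).

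**Figure D2:**
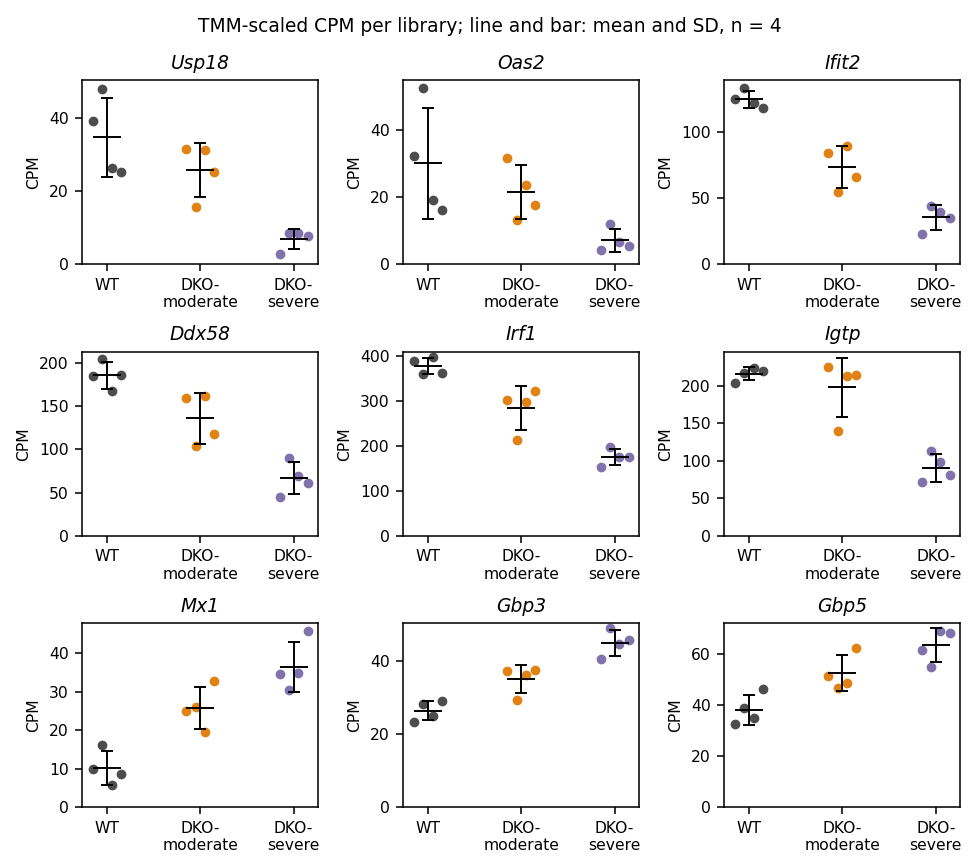
CPM of 9 members in every library (points), with the mean and SD of the 4 libraries of each group (line and bar). In the upper 2 rows the DKO-severe points lie below all WT points, and in the bottom row, *Mx1*, *Gbp3* and *Gbp5*, they lie above them.

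In the interferon gamma group, *Irf1* (chr11:53770014-53778374), the factor that relays the interferon gamma signal to later genes, had levels of 390, 361, 397 and 363 CPM across WT, 302, 214, 298 and 323 CPM across DKO-moderate and 152, 197, 176 and 176 CPM across DKO-severe. The 3 groups did not overlap, and the log2 fold change was -1.11 in DKO-severe (SE 0.12, edgeR adjusted p = 2.72e-05). *Irf8* (chr8:120736358-120756694), a factor of B cells and myeloid cells as well as T cells, gave 12.04, 12.8, 35.9 and 19.2 CPM over the WT libraries, 19.1, 12.01, 15.8 and 16.3 CPM over the DKO-moderate libraries and 19.5, 56.4, 10.2 and 10.1 CPM over the DKO-severe libraries. Its 2 highest libraries, WT 3 and DKO-severe 2, were also those with the most B cell markers, and its log2 fold change of 0.26 against WT did not pass the test (SE 0.52, edgeR adjusted p = 0.689).

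The 4 guanylate-binding proteins, GTPases that coat vacuoles and membranes of intracellular pathogens, lie side by side on chromosome 3 and did not move together. *Gbp3* (chr3:142560026-142573209) had CPM values of 23.4, 28.1, 25.0 and 28.9 for the WT mice, 37.2, 29.4, 36.1 and 37.5 for the DKO-moderate mice and 40.4, 48.9, 44.4 and 45.8 for the DKO-severe mice. *Gbp5* (chr3:142493978-142522344), which also promotes inflammasome assembly, had levels of 32.7, 38.9, 34.9 and 46.4 CPM across WT, 51.8, 46.8, 49.0 and 62.7 CPM across DKO-moderate and 61.8, 55.1, 69.1 and 68.6 CPM across DKO-severe. In both genes both DKO groups lay above WT, and in *Gbp3* DKO-severe also lay above DKO-moderate. For DKO-severe against WT their log2 fold changes were 0.77 (SE 0.10, edgeR adjusted p = 9.28e-05) and 0.74 (SE 0.13, edgeR adjusted p = 0.000505).

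*Gbp7* (chr3:142530342-142550149), which lies between *Gbp5* and *Gbp3*, gave 128, 163, 160 and 150 CPM over the WT libraries, 177, 109, 155 and 131 CPM over the DKO-moderate libraries and 81.7, 148, 100 and 89.2 CPM over the DKO-severe libraries. *Gbp2* (chr3:142620602-142638008) had CPM values of 106, 122, 116 and 115 for the WT mice, 117, 108, 126 and 251 for the DKO-moderate mice and 105, 103, 85.4 and 112 for the DKO-severe mice. Both genes overlapped between DKO-severe and WT. *Gbp7* passed the test at -0.52 (SE 0.19, edgeR adjusted p = 0.0353), a call lost without any 1 of 7 libraries of the 3 groups (edgeR adjusted p up to 0.117), and *Gbp2* did not pass at -0.18 (SE 0.22, edgeR adjusted p = 0.519). The 5 guanylate-binding genes on chromosome 5, which are no members, were lower in DKO-severe: *Gbp4*, *Gbp6*, *Gbp8*, *Gbp9* and *Gbp10* fell, with log2 fold changes of -1.21, -1.27, -1.14, -1.28 and -2.08. In the annotation *Gbp8*, *Gbp9* and *Gbp4* overlap one another on the same strand, so reads there may be left out of their counts as ambiguous.

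All 4 immunity-related GTPases, which attack pathogen vacuoles, fell in DKO-severe against WT. *Igtp* (chr11:58199556-58207591) had levels of 204, 217, 224 and 220 CPM across WT, 225, 140, 212 and 214 CPM across DKO-moderate and 71.1, 113, 98.3 and 80.9 CPM across DKO-severe. *Irgm1* (chr11:48861968-48871683), a regulator of the other GTPases and of autophagy, gave 152, 162, 165 and 160 CPM over the WT libraries, 155, 100, 156 and 171 CPM over the DKO-moderate libraries and 71.8, 94.0, 77.0 and 74.7 CPM over the DKO-severe libraries. In both genes DKO-severe lay below all other libraries, at 42.04% and 49.7% of the WT mean, with log2 fold changes of -1.25 (SE 0.16, edgeR adjusted p = 7.09e-05) and -1.01 (SE 0.14, edgeR adjusted p = 0.000138). *Irgm2*, which overlaps *Igtp* on the same strand in the annotation, fell by 0.93. *Iigp1* fell by 0.87, a call lost without DKO-severe 1 or DKO-severe 3 (edgeR adjusted p = 0.0514 and 0.0567).

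*Tap1* (chr17:34187553-34197225), a subunit of the peptide transporter for MHC class I, had CPM values of 540, 507, 433 and 527 for the WT mice, 408, 344, 423 and 465 for the DKO-moderate mice and 302, 324, 327 and 342 for the DKO-severe mice. DKO-severe lay below all 8 other libraries and DKO-moderate overlapped WT. The log2 fold change of *Tap1* against WT was -0.63 in DKO-severe (SE 0.10, edgeR adjusted p = 0.000312).

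In DKO-moderate cells few members differed from WT. With edgeR's test, *Mx1*, *Gbp3* and *Gbp5* rose and *Ifit2* and *Irf1* fell, which is 3 and 2 of 42, beside 12.3% of all genes that rose and 4.78% that fell. The DKO-moderate libraries lay wholly above WT in 4 members and wholly below in 3, where 14.6% and 10.2% of all genes did so. The median log2 fold change was 0.08 over the members (0.10 for type I and -0.13 for interferon gamma genes) and 0.00 over all genes. Scaled by library size alone, 5 members rose and 1 fell, where 17.78% of all genes were called and 3.34% fell. *Gbp3* and *Gbp5* rose by 0.41 and 0.46 on the log2 scale (SE 0.10 and 0.13), and *Ifit2* and *Irf1* fell, with log2 fold changes of -0.76 and -0.41 (SE 0.19 and 0.12). *Isg15*, the ubiquitin-like modifier, was counted at 22.7, 30.3, 13.6 and 15.4 CPM in WT and at 29.9, 31.4, 25.2 and 77.2 CPM in DKO-moderate. Its log2 fold change of 0.998 did not pass the test (SE 0.34, edgeR adjusted p = 0.0662), and DKO-moderate 4 stood far above the other libraries.

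Of these 5 calls only that on *Mx1* held when each library was left out in turn. *Irf1* lost its call without any 1 of 5 libraries (every WT library and DKO-moderate 2, edgeR adjusted p up to 0.0931), and *Gbp5* without WT 1, WT 2, WT 3 or DKO-moderate 4 (up to 0.0876 by edgeR). *Ifit2* lost it without WT 2 or DKO-moderate 2 and *Gbp3* without WT 1, with edgeR adjusted p of 0.0506, 0.0503 and 0.0593. Without WT 1 the count was therefore 2 of 42, and without the libraries over 100 CPM of B cell markers it was also 2.

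**Figure D3:**
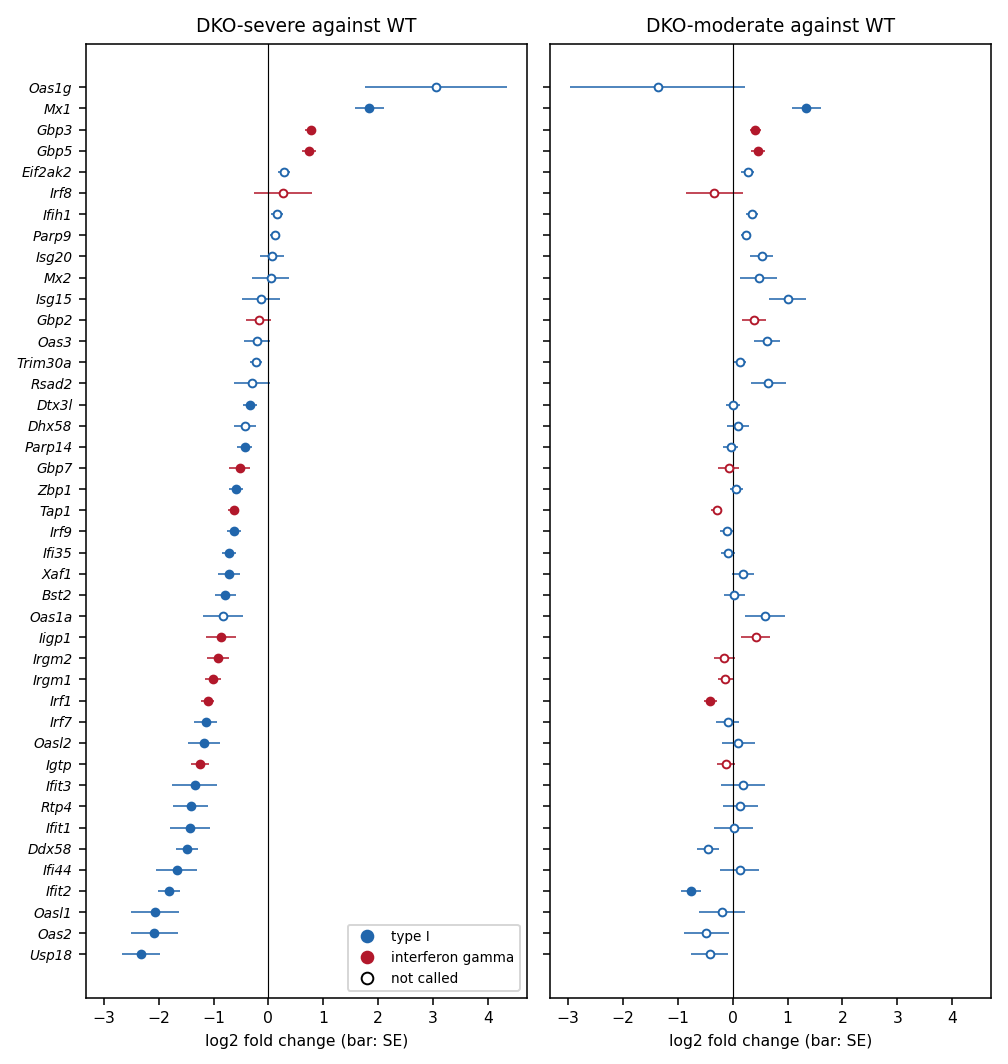
Log2 fold changes of the 42 members (points) with their SE (bars) in DKO-severe against WT on the left and DKO-moderate against WT on the right, in the order of the left panel; filled points passed edgeR's test. In the left panel 25 filled points lie below 0 and 3 above, and in the right panel 2 lie below 0 and 3 above, with the WT libraries shared by both panels.

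Between the grades of disease, 26 members were lower and 2 higher in the severe than in the moderate DKO by edgeR's test, beside 10.7% and 9.41% of all genes. The groups did not overlap in 21 members that were lower and 1 that was higher, where 11.6% and 9.77% of all genes did so. The median log2 fold change was -0.735 over the members, -0.84 for type I and -0.57 for interferon gamma genes, and -0.03 over all genes. Among type I genes 20 of 31 fell and 1, *Oas1g*, rose, and among interferon gamma genes 6 of 11 fell and 1 rose. *Usp18*, *Oasl1*, *Ifi44*, *Oas2* and *Rtp4* had the largest falls, with log2 fold changes of -1.90, -1.88, -1.80, -1.60 and -1.55 (SE 0.35, 0.44, 0.37, 0.43 and 0.33). The call on *Oas2* was lost without any 1 of 5 libraries (edgeR adjusted p up to 0.0708). *Gbp3* rose by 0.36 (SE 0.10), a call lost without DKO-moderate 1, 2 or 3 (edgeR adjusted p up to 0.062). The other call of a rise, on *Oas1g* (edgeR adjusted p = 0.0485), was lost without any 1 of 10 libraries. It rests on the few reads given above, and the gene passed the filter only through DKO-severe, the group where it was high, so that this call is no support for a difference.

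This comparison shares its DKO-severe libraries with that against WT. *Isg15*, *Oas3*, *Oas1a* and *Trim30a* had log2 fold changes of -1.14, -0.84, -1.42 and -0.36 between the grades, which passed the test, and of -0.14, -0.21, -0.83 and -0.22 against WT, which did not. The 4 calls between the grades were lost without any 1 of 6, 6, 4 and 9 libraries, with edgeR adjusted p up to 0.0929, 0.0936, 0.0613 and 0.128, and the log2 fold change of *Isg15* was -0.59 without DKO-moderate 4. *Parp14*, *Dtx3l* and *Gbp7* had values of -0.40, -0.32 and -0.45 between the grades, which did not pass. Whether the comparisons differed in these genes was not tested. When each library was left out in turn, 16 of the 28 calls against DKO-moderate held throughout, and without DKO-moderate 1 the count of calls was 16. Without DKO-severe 1 and 2, 17 members were lower and 0 higher by edgeR's test (2 were higher at an unadjusted p under 0.05), where 5.64% of all genes were lower, and the median was -0.65. With terms for neutrophil and B cell markers 0 members were called by edgeR, with 100 calls among all genes. At an unadjusted p under 0.05, 11 members were then lower and 1 higher, and the members' median was -0.64, beside -0.02 over all genes. The share of all genes at an unadjusted p under 0.05 is not given here, so the unadjusted counts are no result about the members.

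The mean CPM was lowest in DKO-severe in 32 of the 42 members and highest there in 6. It fell stepwise from WT to DKO-moderate to DKO-severe in 16 members, and was highest in DKO-moderate in 20. Per library, the mean over the 31 type I members of log2 CPM minus the WT mean was -0.21 to 0.39 across WT, -0.27 to 0.44 across DKO-moderate and -1.002 to -0.28 across DKO-severe. This mean includes *Oas1g*, whose log2 CPM, on few reads, was -4.17 to -1.81 across WT and -3.65 to 0.13 across DKO-severe. Over the 11 interferon gamma members the mean was -0.15 to 0.09, -0.39 to 0.26 and -0.65 to -0.12 across the same groups. The members of a group tended to be high or low in the same libraries: WT 2 was the highest of its group in 29 members, DKO-severe 1 the lowest in 28 and DKO-severe 2 the highest in 28, and DKO-moderate 2 was the lowest in 35 and DKO-moderate 4 the highest in 29. DKO-severe 1 and 2, at the low and the high end of their group in the members, were both high in neutrophil markers, and WT 2, DKO-moderate 2 and DKO-moderate 4 were among the libraries at or near 0 in Y-linked genes.

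**Figure D4:**
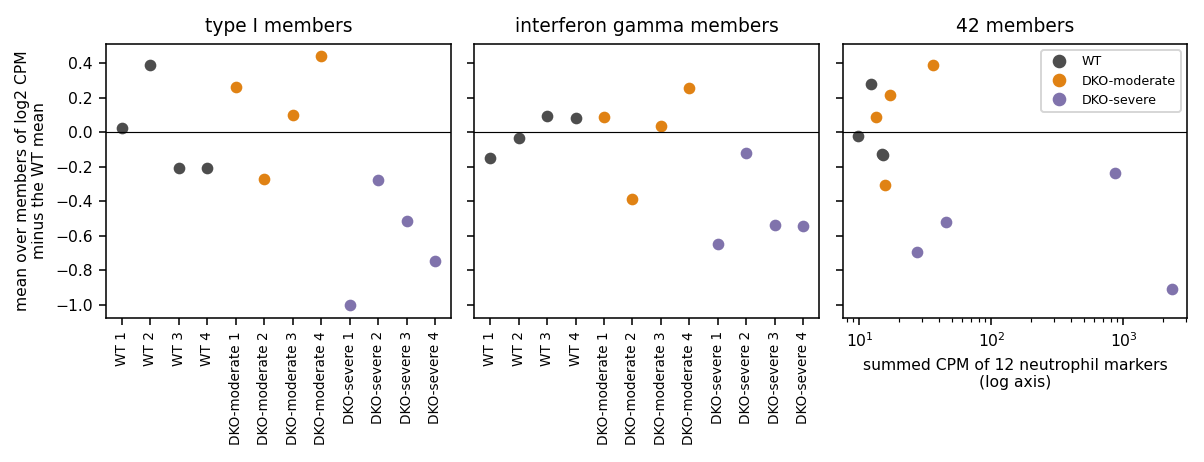
Mean over the type I members (left) and the interferon gamma members (middle) of log2 CPM minus the WT mean in each library, and the same over all 42 members (right) against the summed CPM of 12 neutrophil markers on a log axis. DKO-severe 3 and 4, with 45.4 and 27.5 CPM of these markers, lie at -0.52 and -0.69, between DKO-severe 1 at -0.91 and DKO-severe 2 at -0.24.

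The genes that make, receive and relay the interferon signal were examined through a list of 42 pathway genes, of which 38 were counted and 31 tested. In DKO-severe against WT 15 fell and 4 rose, in DKO-moderate against WT 4 fell and 3 rose, and in DKO-severe against DKO-moderate 10 fell and 1 rose. These are 48.39% and 12.9% of the genes tested in the first comparison, 12.9% and 9.68% in the second and 32.26% and 3.23% in the third, where of all genes 25.9% and 26.6%, 4.78% and 12.3%, and 10.7% and 9.41% fell and rose. Among the ligands, *Ifnb1*, *Ifna1*, *Ifna2*, *Ifna4*, *Ifna5*, *Ifne* and *Ifnk* had 0 reads in every library. *Ifng*, the gene of interferon gamma itself, was counted at 23.0 ± 6.3 CPM across WT, 23.5 ± 8.2 across DKO-moderate and 13.3 ± 6.9 across DKO-severe (SD, n = 4), and the difference between DKO-severe and WT did not pass the test (log2 fold change -0.79, SE 0.39, edgeR adjusted p = 0.106).

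Of 5 receptor chains, 3 fell in DKO-severe against WT, where 25.9% of all genes fell and 26.6% rose. *Ifngr2*, the signalling chain of the interferon gamma receptor, was counted at 62.2 ± 5.7 CPM across WT, 30.8 ± 7.7 across DKO-moderate and 16.4 ± 3.3 across DKO-severe (SD, n = 4), with log2 fold changes against WT of -1.01 in DKO-moderate (SE 0.18) and -1.92 in DKO-severe (SE 0.185). *Ifnar1* fell by 0.64 in DKO-severe and by 0.56 in DKO-moderate, and *Ifnar2* by 0.49 in DKO-severe. *Ifngr1* did not pass the test in DKO-severe at -0.01 (SE 0.17). Of the kinases, *Jak1* fell by 0.65 and *Jak2* rose by 0.53 in DKO-severe against WT.

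Of 8 inhibitors, 4 fell and 1 rose in DKO-severe against WT: *Socs1*, *Ptpn2*, *Pias1* and *Irf2bp2* fell, with log2 fold changes of -0.66 to -0.33, and the phosphatase gene *Ptpn11* rose by 0.62. Of 12 upstream sensors and factors 5 fell and 2 rose. In this comparison 25.9% of all genes fell and 26.6% rose, and roles of so few genes give no result about a role. *Ikbke*, a kinase that activates IRF3 and IRF7, fell by 1.01, and *Trex1*, the DNase that removes cytosolic DNA, fell by 1.05, while *Tmem173*, the gene of STING, rose by 0.56. *Irf5*, a factor abundant in B cells and myeloid cells, rose by 2.37 (SE 0.42). With the neutrophil and B cell terms 6 of the 31 tested genes of the list were called in this comparison, 4 lower and 2 higher. *Ifnar1*, *Ifngr2* and *Ikbke* were among those that fell and *Irf5* among those that rose. Of all genes 16.98% were called in that fit and 4.88% fell.

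A second list held 36 counted interferon-responsive genes outside the members and the pathway list. In it 21 fell and 5 rose in DKO-severe against WT, 0 fell and 3 rose in DKO-moderate against WT, and 18 fell and 0 rose in DKO-severe against DKO-moderate, all by edgeR. The falls are 58.33%, 0% and 50.0% and the rises 13.89%, 8.33% and 0% of the 36 genes, to be read against the same shares of all genes. The 0 that fell in DKO-moderate was 1 at an unadjusted p under 0.05 and 0 by DESeq2 and by limma, and the 0 that rose between the grades was 2 at an unadjusted p under 0.05, 2 by DESeq2 and 3 by limma. The GTPase genes *Tgtp1* and *Gbp10* and the Schlafen gene *Slfn8* fell against WT, with log2 fold changes of -2.02, -2.08 and -1.99. *B2m*, the light chain of MHC class I, fell by 0.62. The rises were *Ifi204*, a DNA-binding protein of myeloid cells, by 4.10, and *Tor3a*, *Ifi27l2a*, *Lgals3bp* and *Ly6a* by 1.03, 0.85, 0.70 and 0.57. The part of the monocyte and macrophage markers in these rises was not tested.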

How the data were processed

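RNA from sorted CD4+ YFP(FOXP3)- cells was sequenced in 12 libraries. Per the labels and the methods of the study, the authors mapped strand-specific paired reads to mm10 with STAR 2.7.11, kept reads with a single position and deposited whole-number counts per gene from htseq-count, with 1 file per library. The annotation behind the counts is not given in the sources used here. Records that name no gene, 18.53% to 23.73% per library, were left out of totals and tests.

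Counts were fitted with edgeR 4.0.16 in R 4.3.3 (TMM, quasi-likelihood test with robust dispersion, all 12 libraries in 1 fit) for 16035 genes with at least 10 reads summed over a condition, and p-values were adjusted over all of these by the Benjamini-Hochberg method at 0.05. SEs were derived from the log2 fold change and its F statistic. CPM are TMM-scaled, and log2 CPM use a prior count of 2. The fitting was tested on simulated data. Alternatives were DESeq2 1.42.0, limma 3.58.1 (voom with quality weights), other scalings, filters and thresholds, added terms, the replicate number as a block, and each library left out. The members, the lists of pathway and marker genes and the tests were chosen with earlier results of these data known. Values in every library are given for the 2 members of each role with the highest mean CPM, for up to 5 largest rises and 5 largest falls among the members called in each comparison, and for the member nearest to the threshold on each side in DKO-severe against WT. *Isg15* was added after its values were seen.

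Positions are those of GENCODE vM21 on GRCm38, the assembly called mm10, and promoter windows those of RefSeq on GRCm38.p6. Libraries of a group differed by more than sampling noise (the lowest chi-square per degree of freedom between any pair was 22.9), so each counted as 1 replicate. Equal replicate numbers did not pair the libraries (see the paragraph on the replicate block in the closing section). Depth was 29254260 to 42133536 reads on genes, and *Oas1g* was the member with the fewest reads. Values of 1 gene of the pathway list are not reported here.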

Additional observations from a re-analysis of the deposited data

Results flagged for a closer look

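In 7 of the 126 groups of 4 libraries formed by the 42 members and 3 conditions, 1 library stood far from the other 3 by Dixon's test at the 95% level. Chance alone flags about 1 in 20 groups. In DKO-moderate 4, *Isg15* was counted at 77.2 CPM beside 25.2 to 31.4 CPM in the other DKO-moderate libraries, *Isg20*, an exonuclease of single-stranded RNA, at 35.8 CPM beside 22.7 to 24.2 CPM, and *Gbp2* at 251 CPM beside 108 to 126 CPM. In DKO-moderate 2, *Irf9* was counted at 97.0 CPM beside 143 to 146 CPM and *Igtp* at 140 CPM beside 212 to 225 CPM. *Usp18* was counted at 2.82 CPM in DKO-severe 1 beside 7.75 to 8.59 CPM in the other DKO-severe libraries. *Oas1g* was counted at 0.23 CPM in WT 3 and at 0 CPM in the other WT libraries.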

How the results depend on the processing

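No call on a member changed its direction under any alternative run. Of the member calls in DKO-severe against WT, DKO-moderate against WT and DKO-severe against DKO-moderate, 612, 99 and 536 results under an alternative kept their call and 60, 21 and 135 lost it. The cause of the changes below was not tested, except that a stricter threshold calls fewer genes by construction.

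Counts of calls are given in the order members, type I members, interferon gamma members, pathway genes and other interferon-responsive genes. In DKO-severe against WT, 28, 19, 9, 19 and 26 genes were called. Terms for neutrophil and B cell markers left 5, 2, 3, 6 and 5, and a log2 fold change of at least 1 in size left 15, 12, 3, 4 and 11. Leaving out 1 library gave 24 to 29, 17 to 21, 7 to 9, 17 to 20 and 23 to 27. The share of all genes called was 52.57% in the first fit, 16.98% with the terms and 45.41% to 56.18% with 1 library left out. Shares of all genes at other thresholds are not given here.

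In DKO-moderate against WT, 5, 2, 3, 7 and 3 genes were called. DESeq2 gave 10 members, 6 type I members and 6 other genes, library size alone 4 type I members and 5 other genes, and a term for Y-linked genes 3 members and 1 interferon gamma member. Of all genes tested, 17.04% were called in the first fit, 24.53% by DESeq2, 17.78% with library size alone and 13.72% with the Y-linked term. The count of members called therefore grew together with that of all genes. An adjusted p under 0.01 left 1, 1 and 0 of the member groups and 2 pathway genes, and a log2 fold change of at least 1 in size left 1, 1, 0 and 1. Leaving out 1 library gave 2 to 6, 2 to 4, 0 to 3, 4 to 7 and 3 to 4, and the lowest values for members, interferon gamma members and pathway genes came without WT 1. The share of all genes called was then 10.2% to 18.46%, and also lowest without WT 1.

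In DKO-severe against DKO-moderate, 28, 21, 7, 11 and 18 genes were called, and 0, 0, 0, 0 and 0 with the neutrophil and B cell terms. An adjusted p under 0.01 left 12, 8, 4, 5 and 6. A log2 fold change of at least 1 in size left 16 members, 2 interferon gamma members, 1 pathway gene and 5 others, and library size alone 7 pathway genes. Leaving out 1 library gave 16 to 29, 12 to 22, 4 to 7, 6 to 14 and 10 to 20, with the lowest values for members, type I members and other genes without DKO-moderate 1. The share of all genes called was 20.07% in the first fit, 0.62% with the neutrophil and B cell terms and 18.17% with library size alone. It was 10.22% to 22.84% with 1 library left out, and lowest without DKO-moderate 1.

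Leaving out DKO-severe 1 and 2, or the 3 libraries over 100 CPM of B cell markers, was chosen after seeing the data. The first gave 17, 13, 4 and 7 calls among members, type I members, interferon gamma members and pathway genes between the DKO grades, and 5 other genes in DKO-moderate against WT. The second gave 18 members, 4 interferon gamma members, 7 pathway genes and 11 others between the grades, and 2 members and 0 interferon gamma members in DKO-moderate against WT. Between the grades 13.55% and 13.22% of all genes were called in these fits, and in DKO-moderate against WT 18.37% and 16.52%.

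With the replicate block, 26, 4 and 22 members were called in the 3 comparisons, and 5 other interferon-responsive genes in DKO-moderate against WT. The shares of all genes called were 48.58%, 13.74% and 14.47%. Libraries with the same number shared only that number: over 12 such pairs the correlation of their deviations from the group means was -0.272 to 0.208 (median -0.03), and over 36 pairs with different numbers -0.318 to 0.303 (median 0.01).

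On the gene strand alone an ISRE stood in 10 of 32 member promoters and in 2.06% of those of all genes.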

Other observations

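Per kilobase of exon, the mean level in WT was highest for *Igtp*, *Irf1* and *Tap1*, at 107, 95.0 and 91.6 CPM per kb, and lowest for *Oas1g* and *Ifi44*, at 0.0246 and 0.798 CPM per kb. In DKO-severe *Tap1* stood at 59.2, *Igtp* at 45.0 and *Irf1* at 44.1 CPM per kb, so that their order differed from WT.

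The members with an ISRE in the promoter window had a median log2 fold change of -0.30 in DKO-severe against WT (19 genes) and those without one -0.73 (13 genes). With and without a GAS the medians were -0.75 (12 genes) and -0.63 (20 genes). These medians are a description of the members and no test was made of their difference.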
